A study of Arabidopsis thaliana with 4 samples.

Results

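The subject is 3 gene families that act on the polysaccharides of the plant cell wall: the TBL proteins (TRICHOME BIREFRINGENCE-LIKE), the expansins and the XTH enzymes (xyloglucan endotransglucosylase/hydrolases). Members were the genes whose symbol in the array annotation starts with TBL, EXPA, EXPB, EXLA, EXLB or XTH and whose probe set is paired with exactly 1 gene. This gave 41 genes of 9571 on the analysed part of the array, namely 19 TBL genes, 14 expansins and 8 XTH genes, each with 1 probe set. No gene with a symbol starting EXLB was among them.

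RNA came from rosette leaves 5 to 8 of 5 week old Arabidopsis thaliana plants grown under 8 h of light per day, with no mutant or transgene named in the labels. There were 2 biological replicates taken before treatment (0 h) and 2 taken 72 h after the roots were drenched with 0.5 mM probenazole (PBZ), a compound that the submitters used to raise the plants' own salicylic acid. Each of the 4 samples was hybridised to 1 Affymetrix array, and the values are probe set signals, a measure of brightness. No untreated leaves of 72 h were among the samples, so an effect of PBZ and of the time between samplings cannot be told apart.

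Wall polysaccharides such as xylan, glucomannan, xyloglucan and pectin carry acetyl groups, and several TBL proteins are the enzymes that add them in the Golgi apparatus. Expansins loosen the wall without cutting its polymers, by weakening the contacts between cellulose and other glucans, and are best known from growing cells. XTH enzymes cut xyloglucan, the polymer that ties cellulose fibrils together, and either join the cut end to another chain or hydrolyse it. In leaves these families are known for roles in cell expansion and in the remodelling of walls, which also meet the pathogens that salicylic acid defends against.

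Array medians lay between 19.2 and 32.5, with the lowest on replicate 1 before PBZ. The median log2 change over the 12239 probe sets bright enough to be tested was 0.37 on the deposited scale and -0.06 after quantile normalization, so small changes depend on how arrays are set against each other. Listed markers of cell types were looked up only among the probe sets paired with exactly 1 gene. Of 12 for leaf mesophyll, 2 were found there, the Calvin cycle genes PRK and SBPASE. Their summed signal was 8262 and 10150 before PBZ and 6043 and 4561 after it. SWEET11, the 1 found of 3 phloem markers, read 2009 and 1473 before and 1118 and 1342 after. The guard cell factor FAMA, also 1 found of 3, read 22.5 and 24.7 before and 28.9 and 35.5 after. No epidermis or xylem marker of the list was found among these probe sets. Other probe sets of the array were not searched for them. The part that these shifts have in the results was not tested, and fewer cells of a type and less RNA per cell cannot be told apart in whole leaves.

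Of the 41 genes, 33 passed the filter on dim probe sets and 8 did not. TBL26 fell and TBL35 rose (limma, 2-sided, Benjamini-Hochberg adjusted p under 0.05 over all probe sets tested), and the other 31 tested members did not pass. Over all probe sets tested, 5.34% were called higher and 0.245% lower on the deposited scale. Among the tested members 3.03% were called each way, which is 1 gene each. With 33 members, 1 call is the smallest count that can stand above the share for lower calls, so it does not set the families apart. After quantile normalization 4.46% of all probe sets were called higher and 2.27% lower, and among the members 0 were higher and 3 lower, namely TBL26, EXPB3 and XTH32.

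**Figure D1:**
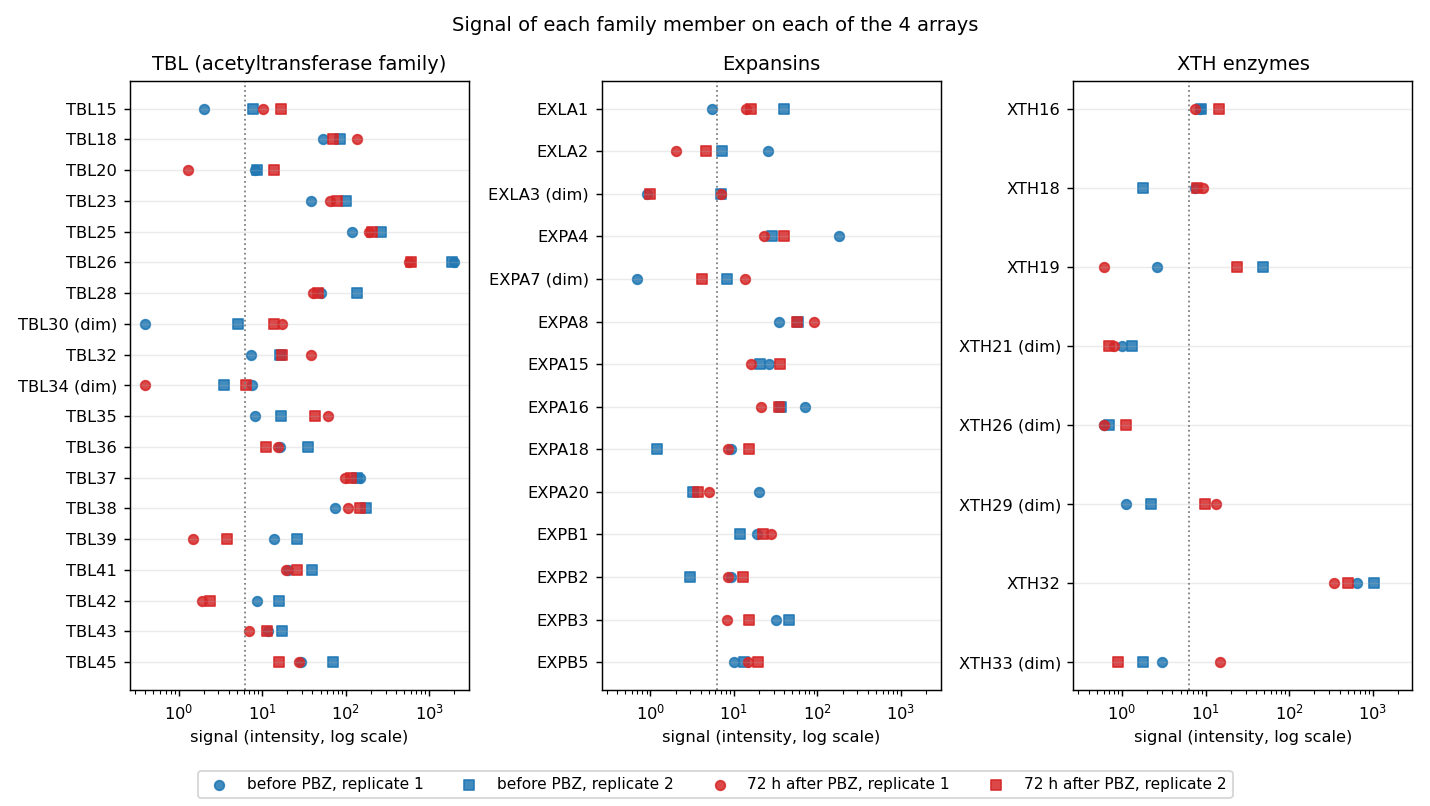
Signal (intensity, log scale) of each of the 41 genes on each of the 4 arrays, by family. Blue marks arrays before PBZ and red arrays 72 h after it, with circles for replicate 1 and squares for replicate 2, the dotted line marks 6.30, the lower quartile of all signals, and "dim" marks the 8 genes left out of the test. TBL26 and XTH32 have the highest signals of the members, and for both the red symbols lie to the left of the blue ones.

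TBL26 (AT4G01080) belongs with TBL23 and TBL25 to the TBL proteins known to acetylate mannan, a polymer of the hemicellulose group. Its signal was 1951 and 1848 on the 2 arrays before PBZ and 569 and 601 on the 2 arrays after it. Both arrays after PBZ read far below both before, and the arrays of each group agreed to within 1.06 times on the deposited scale. After quantile normalization TBL26 read 2479 and 1794 before PBZ and 459 and 512 after it. On the deposited scale TBL26 fell 3.25-fold (log2 change -1.70 ± 0.44 SE, 95% confidence interval -2.59 to -0.80, limma adjusted p = 0.0152). It ranked 10 by p-value among the 30 probe sets called lower, and 7 among the 15 of these that are paired with 1 gene. The SEs and intervals here and below draw mostly on other probe sets of like intensity, not on a gene's own replicates alone.

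Under the alternatives tried, the log2 change of TBL26 ran from -2.12 to -1.66. Alternatives that changed only the error estimate or the probe sets tested left it at -1.70 by construction. The call did not hold throughout. It did not pass without an intensity trend in the error estimate (adjusted p = 0.218) or with dim probe sets kept (0.0564). It also did not pass without replicate 1 before PBZ (0.0651), without replicate 1 after PBZ (0.275) or without replicate 2 after PBZ (0.229).

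The other 2 mannan acetyltransferases among the members gave no call. TBL25 (AT1G01430) read 119.9 and 262.3 before PBZ and 189.7 and 206.4 after it, so the values after PBZ lay inside the range of those before. Its log2 change was 0.16 ± 0.56 (95% confidence interval -0.99 to 1.31, limma adjusted p = 0.932), and -0.43 after quantile normalization. TBL23 (AT4G11090) read 38.6 and 100.0 before and 65.3 and 78.6 after, with a log2 change of 0.21 ± 0.58 (interval -0.99 to 1.40), or -0.28 after quantile normalization. These intervals include both no change and changes of more than 1.5-fold in either direction.

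Where an array is scaled by 1 factor, the ratio of 2 probe sets on it does not depend on that factor. How these arrays were scaled is not stated, and quantile normalization can change such ratios. The ratio of TBL26 to TBL25 was 16.3 and 7.05 on the arrays before PBZ and 3.0 and 2.91 on those after it. That of TBL26 to TBL23 was 50.5 and 18.5 before and 8.72 and 7.65 after. Both ratios were lower on each array after PBZ than on each array before, by 3.62-fold and 3.74-fold in geometric means. The ratio of TBL26 to XTH32, the other bright member, was 2.98 and 1.80 before and 1.66 and 1.18 after, a smaller difference of 1.66-fold. These pairs were chosen after their values were seen, the difference between the genes was not tested, and an exact permutation test of 2 against 2 arrays could not have passed 0.05.

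TBL35 (AT5G01620) is one of the TBL proteins known to acetylate xylan, the main hemicellulose of thickened walls, with TBL28, TBL30, TBL32 and TBL34 among the other members of that role. It read 8.2 and 16.8 before PBZ and 60.5 and 43.4 after it. Both arrays after PBZ were above both before, and it rose 4.37-fold (log2 change 2.13 ± 0.63 SE, 95% confidence interval 0.83 to 3.42, limma adjusted p = 0.042). By p-value it ranked 605 among the 653 probe sets called higher.

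The call for TBL35 lay close to the threshold. It did not pass after quantile normalization (log2 change 1.80, adjusted p = 0.0538), with arrays centred on their medians (1.76, 0.0536), with dim probe sets kept (0.177), or without an intensity trend (0.175). Nor did it pass without replicate 1 before PBZ (log2 change 1.61, adjusted p = 0.284), replicate 1 after PBZ (1.89, 0.442) or replicate 2 after PBZ (2.37, 0.141). Its log2 change was positive under each of the 10 alternatives that gave it a value, but most of these could not have turned it. Alternatives that changed only the error estimate or the probe sets tested left it at 2.13 by construction. As the 2 groups do not overlap, leaving out an array could not turn the sign either.

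Among the other xylan acetyltransferases values went both ways and none passed. TBL32 (AT3G11030) read 7.3 and 16.5 before PBZ and 38.5 and 17.4 after it, a log2 change of 1.24 ± 0.74 (limma adjusted p = 0.424). The groups were apart only by a narrow margin, and its probe set carries the suffix that Affymetrix gives to sets matching several transcripts, so it may also read a related gene. TBL28 (AT2G40150) read 50.1 and 135.7 before and 40.5 and 46.3 after, a log2 change of -0.93 ± 0.59 (adjusted p = 0.457), with replicate 2 before PBZ standing far above the other 3 arrays. On single arrays the ratio of TBL35 to TBL32 was 1.12 and 1.02 before PBZ and 1.57 and 2.49 after it, and that of TBL35 to TBL28 0.164 and 0.124 before and 1.49 and 0.937 after, pairs that were also chosen after their values were seen and not tested.

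TBL30 (AT2G40160), the neighbour of TBL28 by locus number, was too dim to enter the test. It read 0.4 and 5.1 before PBZ and 17.1 and 13.9 after it, so both arrays before lay under 6.30, the lower quartile of all signals, below which a fold is poorly measured. Set against that floor it was at least 2.45-fold higher, and with dim probe sets kept its adjusted p was 0.239 (limma). TBL34 (AT2G38320) was also dim, at 7.6 and 3.5 before and 0.4 and 6.4 after, and its groups overlapped.

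The remaining 11 TBL genes gave no call, and 8 of them had a log2 change below 0, beside 3988 of all 12239 probe sets tested. TBL39 (AT2G42570) read 13.9 and 26.4 before PBZ and 1.5 and 3.8 after it, so both arrays after lay under the floor and it was at least 3.04-fold lower (log2 change -3.0 ± 1.2, limma adjusted p = 0.168). TBL42 (AT1G78710) read 8.7 and 15.7 before and 1.9 and 2.4 after, at least 1.86-fold lower (adjusted p = 0.421). For both, the groups did not overlap, and the levels after PBZ are known only as below the floor.

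TBL45 (AT2G30010) read 28.8 and 71.3 before PBZ and 27.5 and 15.7 after it, a log2 change of -1.12 ± 0.62 (limma adjusted p = 0.37). Its groups were separated by little more than the difference between 28.8 and 27.5, while replicates differed by up to 2.48 times. TBL15 (AT2G37720) had the highest log2 change of these 11, at 1.74 ± 1.17 (adjusted p = 0.491), from 2.0 and 7.8 before to 10.3 and 16.9 after, with 1 array before PBZ under the floor.

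The other 7 of the 11 were TBL18, TBL20, TBL36, TBL37, TBL38, TBL41, TBL43. TBL37 read 147.5 and 137.7 before PBZ and 97.7 and 114.4 after it, a log2 change of -0.43 ± 0.55 whose interval, -1.56 to 0.70, includes 0. TBL38, known from seed mucilage, where it removes acetyl groups from pectin, read 74.7 and 173.6 before and 105.2 and 146.3 after, a log2 change of 0.12 ± 0.58 that turned to -0.44 under quantile normalization.

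**Figure D2:**
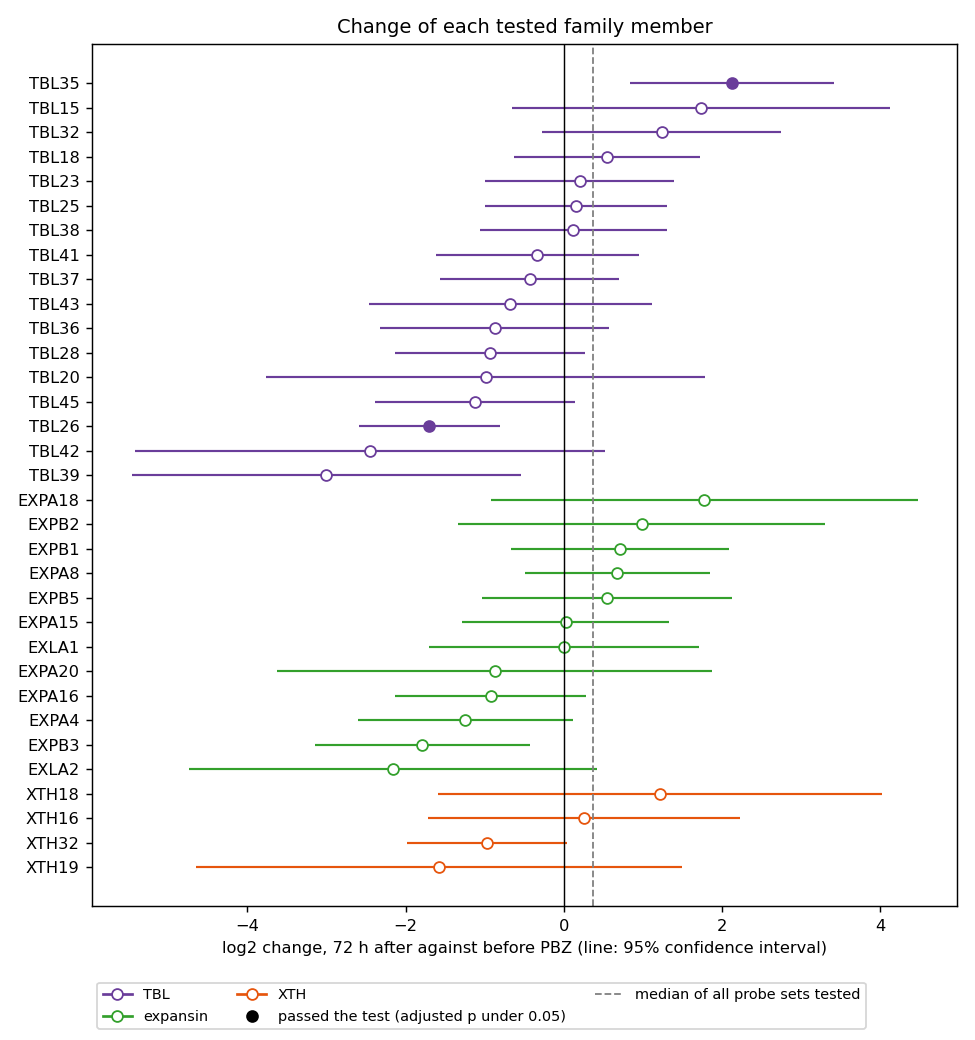
Log2 change (72 h after against before PBZ) of the 33 tested genes with 95% confidence intervals from limma, sorted within each family. Filled symbols passed the test, and the dashed line marks the median of all probe sets tested, 0.37. TBL26 and TBL35 are the filled symbols, and 23 of the 33 symbols lie to the left of the dashed line.

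No expansin passed on the deposited scale. Of the 12 tested, 1 had an unadjusted p under 0.05 (limma), and the median log2 change was 0.01. Above 0 were 7 of the 12, beside 8251 of all 12239 probe sets tested. EXPB3 (AT4G28250), a beta-expansin, was the member with that p. It read 31.9 and 46.2 before PBZ and 8.2 and 15.1 after it, so the groups were well apart, and its log2 change was -1.79 ± 0.66 (95% confidence interval -3.14 to -0.43, adjusted p = 0.127). After quantile normalization it was -2.08 and passed (adjusted p = 0.0298), and with arrays centred on their medians -2.15 (0.0309).

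The other beta-expansins had positive log2 changes without a call: EXPB1 at 0.71 ± 0.67, EXPB2 at 0.98 ± 1.14 and EXPB5 at 0.55 ± 0.78. EXPB1 (AT2G20750) read 19.0 and 11.9 before PBZ and 27.5 and 22.0 after it, and EXPB5 (AT3G60570) 10.1 and 13.1 before and 14.6 and 19.4 after. In these 2 genes the groups did not overlap, and the sign was opposite to that of EXPB3. Both arrays after PBZ were above both before in 36.1% of all probe sets tested. With arrays centred on their medians, the log2 changes of EXPB1 and EXPB5 were 0.34 and 0.18. The difference between EXPB3 and the other beta-expansins was not tested.

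Alpha-expansins, the group first known from acid-induced wall extension, varied more between replicates than between groups. In all 6 tested members the larger ratio between replicate arrays exceeded the ratio between group means, beside 66.9% of all probe sets tested. EXPA4 (AT2G39700) read 178.8 and 28.9 before PBZ and 22.9 and 40.1 after it, so replicate 1 before PBZ alone stood above the others. Its log2 change of -1.25 ± 0.66 (limma adjusted p = 0.348) became 0.068 without that array (0.981) and -2.56 without replicate 2 before PBZ, where it passed (0.0185). EXPA8 (AT2G40610) read 34.5 and 59.2 before and 91.5 and 57.0 after, a log2 change of 0.68 ± 0.57 (adjusted p = 0.609) with overlapping groups.

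EXPA16 (AT3G55500) read 71.8 and 36.9 before PBZ and 21.1 and 34.8 after it, a log2 change of -0.93 ± 0.59. Both its arrays after PBZ lay below both before, as in 10.6% of all probe sets tested. The larger ratio between its replicates was 1.95, beside 1.90 between groups. EXPA15 (AT2G03090) read 26.6 and 20.7 before and 15.9 and 35.8 after, at 0.02 ± 0.64. EXPA20 was at or under a signal of 19.8 on all arrays. EXPA7 and EXPA18, which are known from root hairs and served here as markers of root tissue, lay near the floor, at 0.7 to 15.3 on the 4 arrays. They were the 2 of 5 listed root markers found among probe sets paired with 1 gene, too few to check the tissue by. Their summed signal was 9.9 and 9.5 before PBZ and 22.1 and 19.5 after it.

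The expansin-like A genes encode proteins built like expansins for which no wall-loosening activity is established. EXLA2 (AT4G38400) read 25.5 and 7.2 before PBZ and 2.0 and 4.6 after it, at least 2.15-fold lower against the floor (log2 change -2.16 ± 1.26, limma adjusted p = 0.41). EXLA1 (AT3G45970) read 5.5 and 39.5 before and 13.8 and 15.8 after, a log2 change of 0.00 ± 0.84, with the values after PBZ inside the range of those before. Its neighbour EXLA3 (AT3G45960) was dim, at 0.9 and 7.1 before and 7.0 and 1.0 after.

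Of the 8 XTH genes, 4 were bright enough to be tested and none passed, nor had any an unadjusted p under 0.05 (limma). XTH32 (AT2G36870) belongs to the small subgroup of XTH proteins that hydrolyse xyloglucan. It read 655.0 and 1024 before PBZ and 343.8 and 509.7 after it. Both arrays after PBZ lay below both before, at a 1.96-fold lower geometric mean (log2 change -0.97 ± 0.49, 95% confidence interval -1.98 to 0.04, adjusted p = 0.319). Under quantile normalization the change was -1.5 and passed (adjusted p = 0.0158). With arrays centred on their medians it was -1.33 and did not (0.0544).

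The other tested XTH genes were near the floor or varied widely. XTH18 (AT4G30280) read 7.4 and 1.8 before PBZ and 9.3 and 7.8 after it, a log2 change of 1.22 ± 1.37 (limma adjusted p = 0.723), with the groups apart only by the step from 7.4 to 7.8. XTH16 (AT3G23730) read 8.5 and 8.8 before and 7.5 and 14.3 after, at 0.26 ± 0.97. XTH19 (AT4G30290), which lies next to XTH18 by locus number, read 2.6 and 49.0 before and 0.6 and 24.0 after. In XTH19 the replicates differed by 18.8 times before PBZ and 40.0 times after it, with replicate 1 low in both groups, so its log2 change of -1.57 ± 1.5 says little about PBZ.

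The other 4 XTH genes were too dim to be tested. XTH21 and XTH26, both known from roots, read at most 1.3 on any array. XTH29 (AT4G18990) read 1.1 and 2.2 before PBZ and 13.2 and 9.7 after it, at least 1.80-fold higher against the floor, with an adjusted p of 0.276 when dim probe sets were kept (limma). XTH33, an XTH protein anchored in the plasma membrane, read 3.0 and 1.8 before and 14.7 and 0.9 after, so 1 array after PBZ stood apart from the other.

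**Figure D3:**
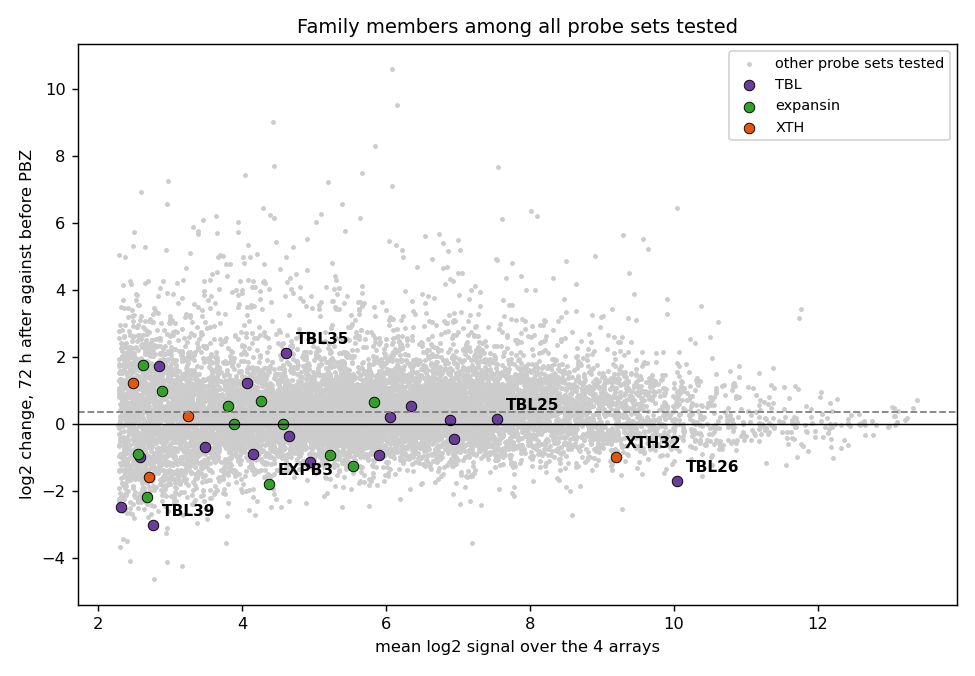
Log2 change against mean log2 signal over the 4 arrays for all 12239 probe sets tested (grey), with the 33 tested family members coloured by family. The dashed line marks the median change of all probe sets, 0.37. TBL26, at a log2 change of -1.70, and XTH32, at -0.97, lie at the bright end of the members and below the dashed line.

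Taken family by family, the median log2 change of the tested members was -0.43 for the 17 TBL genes, 0.01 for the 12 expansins and -0.35 for the 4 XTH genes, beside 0.37 for all probe sets tested. After quantile normalization the medians were -0.90, -0.25 and -0.71, beside -0.06. On the deposited scale 16 tested members were above 0 and 17 below, beside 8251 above and 3988 below among all probe sets tested. Under quantile normalization 5 of the members changed sign, which left 11 above and 22 below. Without the filter on dim probe sets the median of all 41 members was 0.02, beside 0.34 for all probe sets, and 27 of the 41 lay below that value.

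Both arrays after PBZ lay below both before in 13 of the 41 members (31.7%), beside 11.5% of all probe sets. They lay above both before in 8 of the 41 (19.5%), beside 31.6% of all probe sets. By family, 8 of 19 TBL genes were lower on both arrays after PBZ and 4 higher, while 3 of 14 expansins were lower and 2 higher, and 2 of 8 XTH genes were lower and 2 higher. On the deposited scale and with dim genes counted, the surplus of lower members thus lay mainly in the TBL family. These shares describe the members and were not tested, and members with related sequences are not independent. Such counts were not made after quantile normalization. Genes with both arrays of a group under 6.30 were TBL39, TBL42, EXLA2 and XTH21 among the lower, and TBL30 and XTH29 among the higher. In 66.7% of the tested members the larger ratio between replicate arrays exceeded that between groups, beside 66.9% of all probe sets tested.

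Other genes of the wall were taken from 9 groups chosen by symbol, of which 5 had a gene on the analysed part of the array. All 12 genes were tested and none passed, while 2 had an unadjusted p under 0.05 (limma), and their median log2 change was 0.01. Those 2 are among 3 genes listed by symbol as pectin methylesterases, enzymes that remove methyl groups from pectin. Genes without such a symbol could not enter, so the 3 need not be all measured genes of this kind. The share of all probe sets with such an unadjusted p was not counted. ATPMEPCRB read 9.0 and 25.1 before PBZ and 61.4 and 33.9 after it, a log2 change of 1.60 ± 0.64 (adjusted p = 0.17). ATPMEPCRD read 1.3 and 1.7 before and 18.0 and 15.7 after, at least 2.67-fold higher against the floor (adjusted p = 0.187). In both genes each array after PBZ was above each array before, as in 36.1% of all probe sets tested. The third, PME61, read 36.6 and 84.7 before and 53.3 and 58.7 after, a log2 change of 0.01 ± 0.58 (adjusted p = 0.998) with the values after PBZ inside the range of those before.

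Among 6 genes of the cellulose synthase-like family, CSLC5, of the clade that makes the xyloglucan backbone, had the smallest p. It read 95.6 and 166.7 before PBZ and 74.8 and 58.0 after it, a log2 change of -0.94 ± 0.57 (limma adjusted p = 0.435), and passed as lower under quantile normalization (-1.45, adjusted p = 0.045). GAUT15 of pectin synthesis, IRX15 of xylan synthesis and FER, a receptor kinase that watches the wall, had log2 changes of -0.38 ± 0.57, -0.07 ± 1.35 and 0.01 ± 0.59. FER turned to -0.52 under quantile normalization.

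**Figure D4:**
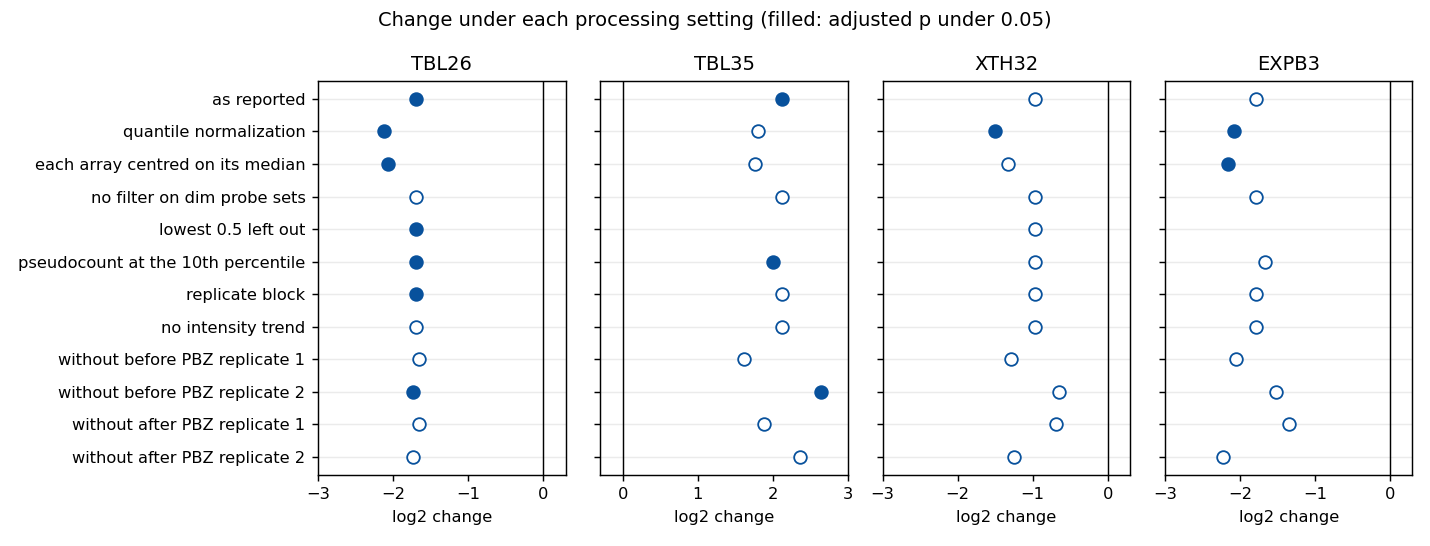
Log2 change of TBL26, TBL35, XTH32 and EXPB3 as reported and under each alternative, with filled symbols for an adjusted p under 0.05 (limma). TBL26 stays between -2.12 and -1.66 and TBL35 between 1.61 and 2.64, while their symbols are filled under some settings and open under others, and EXPB3 has no value where the lowest 0.5 of probe sets were left out.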

How the data were processed

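Leaf RNA of 4 samples, 2 per group by their titles, was labelled with biotin and hybridised to 1 Affymetrix array each, per the labels' protocols. The deposited values are linear signal intensities of probe sets. The submitters' processing notes name GCOS. Its version and its scaling of the arrays are not stated there. Array medians differed by up to 1.69 times.

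From these, 64 control rows were left out and 16319 probe sets kept, of which 9685 were paired with 1 gene by the platform's annotation. Loci and synonyms came from a RefSeq table of TAIR10.1, used for names only. Signals were log2-transformed after 2 zeros were replaced by 0.1, the smallest signal above 0. The dimmest 0.25 of probe sets by mean (4080) were removed. The remaining 12239 were compared between groups with limma 3.58.1 under R 4.3.3, with Benjamini-Hochberg adjustment at 0.05. The error estimate followed intensity (eBayes trend). It had 2 residual degrees of freedom from the probe set itself and a median of 27.2 prior ones, drawn from all probe sets tested. SEs and confidence intervals therefore rest mostly on the spread of other probe sets. The fit was also run on simulated data with known changes. Their spread was taken from the fit itself, so that run could not check the calls made here. The number of arrays limits the precision. Each fold divides geometric means, and those written "at least" set signals under 6.30 to that value, a floor chosen after the data were seen. Values with ± SE are from limma.

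The members, gene lists and tests were chosen with earlier results of these data known. Genes given with all 4 signals and their test are those that passed, tested members with groups that did not overlap and a log2 change of at least 1, and the 2 brightest of each family, 15 in all. The others so given, dim genes among them, were added after their values were seen. Alternatives were quantile normalization, median centring, no dim filter, removal of the dimmest 0.5, a pseudocount of 1.3, a replicate block, an error estimate without the trend, averaging the probe sets of a gene, and each array left out. Promoter and protein sequences were not used here.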

Additional observations from a re-analysis of the deposited data

How the results depend on the processing

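With the 11 alternatives, the 15 genes named by rule gave 156 values, of which 133 kept their direction and their side of the threshold, 13 lost a call (5 for TBL26 and 8 for TBL35), 4 gained one and 6 turned. Turned values were TBL25 at -0.43 (quantile normalization) and -0.21 (median centring), XTH16 at -0.11 (median centring), and values with an array left out, which ran from -0.41 to 0.72 for TBL25, from -0.21 to 0.73 for XTH16 and from -2.56 to 0.068 for EXPA4. The causes were not tested. Alternatives that changed only the dim filter, the replicate block or the trend left each log2 change as reported. These could not turn a value. The replicate number did not pair the samples (correlation of deviations -0.06 over probe sets). With the replicate block 1 member passed, TBL26 (adjusted p under 0.05), and TBL35 did not (0.0961).

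Members called higher were 1 as reported and 0 with quantile normalization, median centring, no dim filter, the lowest 0.5 left out, the replicate block or no intensity trend, and 0 to 1 with an array left out. Members called lower were 1 as reported, 3 with quantile normalization, 2 with median centring, 0 with no dim filter or no intensity trend, and 0 to 2 with an array left out. TBL calls, 2 as reported, were 1 with quantile normalization, median centring, the lowest 0.5 left out or the replicate block, 0 with no dim filter or no intensity trend, and 0 to 2 with an array left out. Expansin calls were 1 with quantile normalization or median centring and 0 to 1 with an array left out. XTH calls were 1 with quantile normalization. Calls among other wall genes were 1 with quantile normalization (CSLC5), 1 with no intensity trend (ATPMEPCRD) and 0 to 1 with an array left out. Each gene had 1 probe set, so the mean over probe sets gave the reported values.

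On the whole array part the reported calls were 653 higher and 30 lower. Higher calls were 157 with no intensity trend and 217 to 1136 with an array left out. Lower calls were 278 with quantile normalization, 179 with median centring, 15 with no dim filter, 48 with the lowest 0.5 left out, 8 with no intensity trend and 12 to 38 with an array left out. With an array left out, the lone array of its group is assumed to vary like the others. Low signals limit what can be said: 22 of the 33 tested members were above 6.30 on all 4 arrays.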

Other observations

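Family genes annotated under another name fell outside the choice of members. EXGT-A3 (AT2G01850), which RefSeq also lists as XTH27, read 344.8 and 267.9 before PBZ and 300.5 and 325.1 after it, a log2 change of 0.04 ± 0.52 (limma adjusted p = 0.984), with overlapping groups. AT2G31110, listed also as TBL40, has 2 probe sets whose log2 changes differ in sign. The set that read 80.2 and 94.2 before and 132.8 and 128.0 after had a log2 change of 0.58 ± 0.56 (adjusted p = 0.657). The other read 29.6 and 3.9 before and 2.3 and 13.8 after, at -0.93 ± 1.2 (adjusted p = 0.762).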
